A study of Mus musculus with 72 samples.

Results

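The nuclear genes for the subunits of the oxidative phosphorylation system were followed through 72 mRNA libraries of mouse macrophages. Members were taken by symbol: genes whose symbol starts with Nduf, Uqcr, Atp5, Cox4, Cox5, Cox6, Cox7 or Cox8, or is Sdha, Sdhb, Sdhc, Sdhd, Cyc1 or Cycs, without the Ndufaf assembly factors and without symbols ending in -ps. This gave 85 of the 18472 genes listed in any of the 3 deposited tables. The marrow table lists 76 of them among 9179 genes, and the table that holds both dexamethasone experiments in RAW264.7 cells lists 78 among 8983. The interferon-beta table lists all 85 among 18254, and 76 are in all 3. By complex, 36 of the 85 belong to complex I, 4 to complex II, 9 to complex III, 16 to complex IV and 17 to complex V. Cycs is the soluble carrier cytochrome c, and Ndufa11b and Ndufb4c carry a subunit's name but are annotated as processed pseudogenes. Cox4i2, Cox6a2, Cox7a1, Ndufa4, Ndufa4l2, Ndufa9, Cycs and the 2 pseudogenes are not in the marrow table. Of these 9, the RAW264.7 dexamethasone table lists Cox4i2 and Cox6a2.

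Oxidative phosphorylation couples the oxidation of NADH and succinate to ATP synthesis in the inner mitochondrial membrane: complexes I and II pass electrons to ubiquinone, complex III passes them to cytochrome c, complex IV reduces oxygen, and complex V uses the proton gradient to make ATP. Most subunits are encoded in the nucleus and imported, while a small core of complexes I, III, IV and V is encoded by mitochondrial DNA; complex II is wholly nuclear. Macrophages activated by lipopolysaccharide (LPS, a bacterial ligand of TLR4) are known for a shift away from respiration towards glycolysis and for accumulating succinate, the substrate of complex II.

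The study compared macrophages with loss of Setd1a or Setd1b, which encode histone H3 lysine 4 methyltransferases, with their controls under LPS, the glucocorticoid dexamethasone (Dex) and interferon-beta (IFNB1), in 24 groups of 3 libraries. Marrow-derived macrophages came from female C57BL/6J mice per the sample labels, although the growth protocol speaks of males. They were Setd1bKO cells or controls titled wild type whose genotype label reads Setd1bHet. They received 1 uM Dex for 16 h with 100 ng/ml LPS for the last 6 h, ethanol for 16 h with LPS, or ethanol and saline (vehicle). RAW264.7, a male BALB/c macrophage line, was used as Setd1aDel/+ or wild-type cells, and the labels do not give the number of clones. The 16 h experiment repeated the marrow scheme. In the 6 h experiment, Dex (1 uM), LPS (100 ng/ml), both, or vehicle were given for 6 h. In the IFNB1 experiment, 10 ng/ml IFNB1 with LPS was set against LPS, both for 6 h. Vehicle groups received 0.1% ethanol, as did the groups given LPS alone in the marrow, 16 h and 6 h experiments. The labels of the IFNB1 experiment name no ethanol.

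The values are the authors' TPM, a count of transcripts scaled per library and gene length, so levels can be compared between genes per unit of length, but a fall of one gene is relative to all others in the library. Listed TPM summed to 837031.9 to 909974.3 per marrow library and to 894029.3 to 912839.5 per RAW264.7 library. In marrow the sums followed treatment, at 837031.9 to 856956.9 with vehicle and 904985.7 to 909974.3 with LPS, with or without Dex. Shares of the listed TPM are thus taken of a smaller sum in marrow vehicle libraries. The number of reads behind a value is unknown. All 8 macrophage markers looked for (Csf1r, Adgre1, Itgam, Cd68, Cd14, Lyz2, Fcgr3, Mertk) were listed in the marrow and IFNB1 tables and 7, without Mertk, in the RAW264.7 dexamethasone table. Of 8 neutrophil markers only S100a8, which macrophages also express, was listed in the marrow and RAW264.7 dexamethasone tables. Libraries of one group correlated at 0.9885 to 0.9975, and none were identical. The libraries labelled Setd1bKO did not have less Setd1b mRNA: under vehicle Setd1b had 10.3, 9.65 and 10.2 TPM in Setd1bKO cells, against 3.80, 5.13 and 4.70 TPM in controls. They are therefore named here as labelled Setd1bKO, and no exon-level values were used. Setd1a had 20.6, 27.7 and 25.8 TPM in Setd1aDel cells under vehicle at 16 h, against 46.8, 37.3 and 32.8 TPM in wild type. Setd1a was called lower in 5 of the 9 Setd1aDel comparisons, all in the 16 h and IFNB1 experiments; in the 6 h experiment its log2 differences lay between -0.62 and -0.38, with limma Benjamini-Hochberg adjusted p between 0.0557 and 0.196.

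Subunit transcripts were among the abundant mRNAs of these cells. Members took 1.593 to 2.471% of the listed TPM in marrow libraries, 2.408 to 4.049% in the 16 h experiment, 2.671 to 3.48% in the 6 h experiment and 2.391 to 2.991% in the IFNB1 experiment. In marrow-derived macrophages the highest mean level over all libraries was that of Atp5e (977 TPM), the epsilon subunit of the F1 part of ATP synthase. The highest of each other complex were Cox7c (759 TPM) in complex IV, Uqcrh (489 TPM), the hinge protein, in complex III, Ndufa1 (392 TPM) in complex I and Sdhc (117 TPM), a membrane anchor, in complex II. The lowest of complex I was Ndufv1, which binds NADH, with a mean of 28.5 TPM, and the lowest of complex II was Sdha, its flavoprotein, with 64.9 TPM. Atp5e (1677.3 TPM), Cox7c (1379.2 TPM) and Uqcrh (1084.4 TPM) also led their complexes in RAW264.7 cells of the 16 h experiment, while Ndufa2 (348 TPM) led complex I and Sdhd (267 TPM) led complex II. Complex II, the smallest complex, took 1.74 to 3.53% of the members' TPM over all groups.

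**Figure D1:**
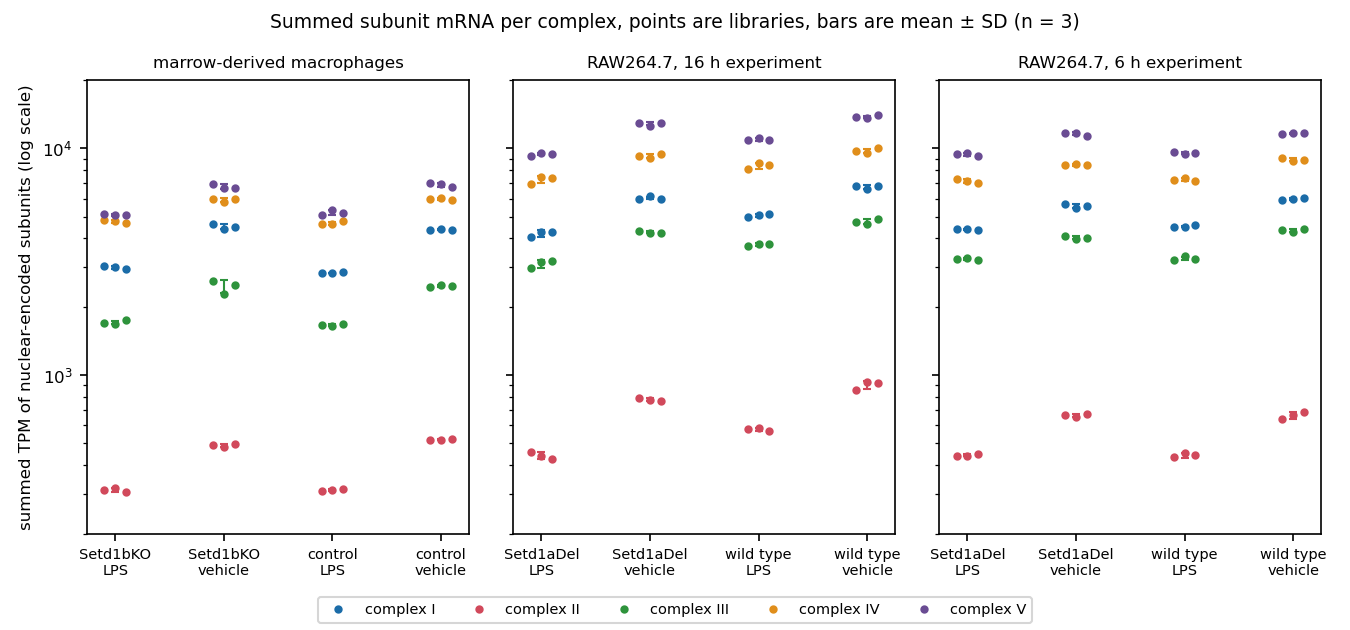
Summed TPM of the measured nuclear subunits of each complex (log axis), for libraries given LPS and, to their right, libraries given vehicle, in marrow-derived macrophages and in RAW264.7 cells of the 16 h and of the 6 h experiment; points are libraries, bars are mean ± SD of 3. All complexes lie lower under LPS on the TPM scale, complex II among them with 307.7 to 312.9 TPM in control marrow cells given LPS and 515.2 to 521.2 TPM in those given vehicle.

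LPS lowered most subunit mRNAs on the TPM scale in both cell types and every genotype, with the lowest median in complex II in all 6 comparisons. Summed over members, marrow cells labelled Setd1bKO had 14859.9 ± 139.3 TPM with LPS and 20156.6 ± 532.1 TPM with vehicle (SD, n = 3 each), and control marrow cells had 14665.4 ± 190.3 TPM with LPS and 20240.5 ± 144.8 TPM with vehicle. In Setd1aDel RAW264.7 cells the sums were 24440.3 ± 605.5 TPM with LPS and 33167.5 ± 314.0 TPM with vehicle in the 16 h experiment, and 24637.9 ± 299.9 TPM with LPS and 30321.9 ± 297.5 TPM with vehicle in the 6 h experiment. In wild-type cells they were 28670.4 ± 491.4 TPM with LPS and 35933.6 ± 579.6 TPM with vehicle at 16 h, and 25024.2 ± 68.1 TPM with LPS and 31538.8 ± 86.3 TPM with vehicle at 6 h. In bulk libraries, a smaller share of cells of one kind and less RNA per cell cannot be told apart.

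Most genes were lower under LPS on this scale, so the members have to be read against that background. In marrow cells labelled Setd1bKO limma with Benjamini-Hochberg adjustment called 2 members higher and 70 of 76 lower, where 24.9% of all tested genes were called higher and 58.2% lower. The median log2 change was -0.51 over members and -0.37 over all genes. In controls 1 member was higher and 72 lower (20.6% and 64.7% of all genes), with medians of -0.55 and -0.49. In the 16 h RAW264.7 experiment 71 of 78 were lower and 1 higher in Setd1aDel cells (66.4% and 18.4% of all genes), and in wild type 69 were lower and none higher (66.1% and 17.4%). In the 6 h experiment 69 were lower in Setd1aDel cells (49.2% of all genes) and 72 in wild type (52.3%), with none higher (20.4% and 19.5% of all genes). The shares of members lowered stood above those of all genes in each comparison, while the medians of all genes were themselves below 0.

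That shift is tied to the scale. Median-of-ratios scaling, which sets the typical gene at no change, moved the median of all genes up by 0.205 to 0.486 on the log2 scale. With it the calls became 14 higher and 34 lower in cells labelled Setd1bKO (39.2% and 39.6% of all genes), and 23 and 20 in control marrow cells (38.9% each). At 16 h they became 12 and 34 in Setd1aDel cells (40.6% and 39.8%) and 19 and 20 in wild type (38.8% and 38.2%). At 6 h they became 4 and 35 in Setd1aDel cells (33.0% and 33.3%) and 4 and 37 in wild type (34.2% and 33.8%). After scaling, lower calls outnumbered higher ones by more than 1.5 times in 4 of the 6 comparisons, but not in control marrow cells or in wild-type cells at 16 h, where the share of members lower was below that of all genes. In cells labelled Setd1bKO and in Setd1aDel cells at 16 h that share was close to that of all genes. Complexes differed under scaling. Complex II kept 3 or 4 of its 4 genes lower and none higher in all 6 comparisons. Complex IV had 3 higher and 1 lower of 11 in cells labelled Setd1bKO, 7 and 1 in control marrow cells, 5 and 2 of 13 in Setd1aDel cells at 16 h, and 4 and 2 in wild type at 16 h. At 6 h the split was the opposite, with 1 higher and 3 lower in Setd1aDel cells and 1 and 4 in wild type.

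**Figure D2:**
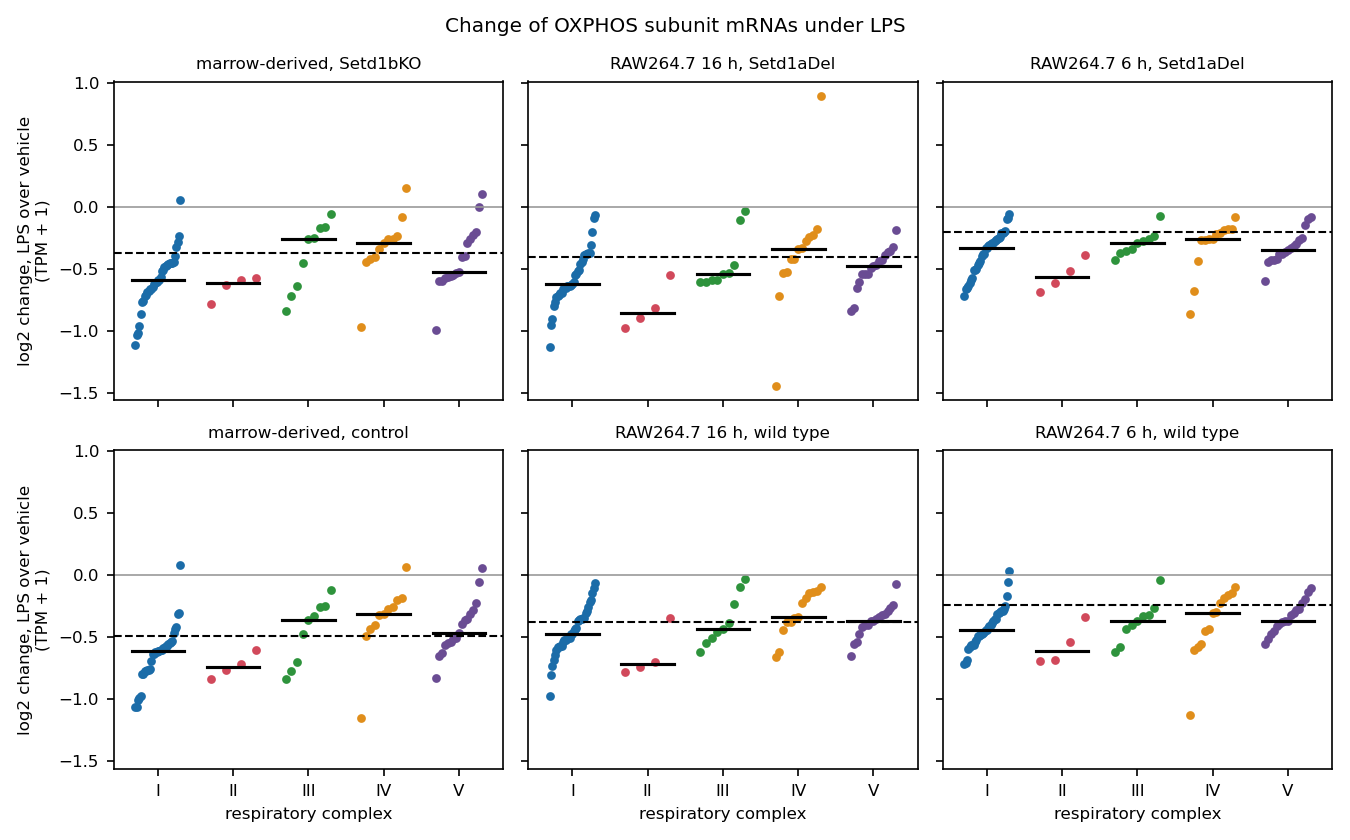
log2 change in TPM, LPS over vehicle, for each measured subunit (points) grouped by complex, in 6 comparisons, Setd1bKO and Setd1aDel cells above their controls; black bars are complex medians and the dashed line is the median of all tested genes. Complex II medians run from -0.86 to -0.57 and lie under the dashed line in every panel, whereas complex IV medians run from -0.34 to -0.26.

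Complex II oxidises succinate to fumarate in the tricarboxylic acid cycle and hands the electrons to ubiquinone. Its 4 transcripts summed to 311.4, 318.3 and 305.3 TPM in cells labelled Setd1bKO given LPS, against 490.8, 481.0 and 496.2 TPM with vehicle. They summed to 307.7, 311.9 and 312.9 TPM in controls given LPS, against 516.9, 515.2 and 521.2 TPM with vehicle. In Setd1aDel cells the sums were 458.9, 439.7 and 427.3 TPM with LPS and 795.8, 772.4 and 769.0 TPM with vehicle at 16 h, and 440.9, 441.6 and 447.9 TPM with LPS and 665.4, 652.0 and 671.9 TPM with vehicle at 6 h. In wild-type cells they were 576.9, 585.1 and 568.5 TPM with LPS and 863.0, 932.0 and 923.1 TPM with vehicle at 16 h, and 432.9, 454.6 and 441.7 TPM with LPS and 642.8, 663.2 and 684.4 TPM with vehicle at 6 h. Every library given LPS lay below every library given vehicle of its own genotype and experiment. The median log2 change of complex II was -0.61 in cells labelled Setd1bKO and -0.74 in control marrow cells. In Setd1aDel RAW264.7 cells it was -0.86 at 16 h and -0.57 at 6 h, and in wild-type cells -0.72 at 16 h and -0.61 at 6 h.

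Sdha, which carries the covalently bound flavin of complex II (chr13:74322254-74350280, GRCm38), had 54.1, 52.5 and 53.6 TPM in control marrow cells given LPS, against 87.9, 87.7 and 89.0 TPM with vehicle. It fell by 0.71 on the log2 scale there (limma, adjusted p = 2.4e-11). In Setd1aDel RAW264.7 cells at 16 h Sdha had 65.0, 61.2 and 57.7 TPM with LPS, against 125, 120 and 121 TPM with vehicle, a log2 change of -0.98 (adjusted p = 1.35e-11). In wild-type cells at 16 h it had 78.7, 81.0 and 77.5 TPM with LPS and 128, 142 and 139 TPM with vehicle (-0.78, adjusted p = 2.96e-10). The LPS and vehicle libraries did not overlap in any of these sets. Sdhd, a membrane anchor with the ubiquinone site, had 190, 173 and 173 TPM with LPS and 339, 333 and 328 TPM with vehicle in Setd1aDel cells at 16 h (log2 change -0.90). In wild type it had 251, 257 and 244 TPM with LPS and 399, 429 and 430 TPM with vehicle (-0.74, adjusted p = 6.03e-11). Sdhb, the iron-sulfur subunit, changed by -0.79 in cells labelled Setd1bKO, -0.83 in control marrow cells, -0.82 and -0.70 at 16 h in Setd1aDel and wild-type cells, and -0.52 and -0.54 at 6 h.

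Complex I is the NADH dehydrogenase. Its median log2 change was -0.59 and -0.61 in Setd1bKO and control marrow cells, -0.62 and -0.47 at 16 h and -0.33 and -0.44 at 6 h in Setd1aDel and wild-type RAW264.7 cells. After scaling complex I had 2 genes higher and 19 lower of 35 in Setd1bKO marrow cells (39.2% and 39.6% of all genes). In controls it had 3 and 13 (38.9% each). At 16 h it had 3 and 20 in Setd1aDel cells (40.6% and 39.8%) and 6 and 12 in wild type (38.8% and 38.2%). The share lower was thus below that of all genes in control marrow cells and in wild type at 16 h. Ndufs7, an iron-sulfur subunit next to the ubiquinone site (chr10:80249121-80256794), had 35.5, 34.0 and 34.0 TPM in cells labelled Setd1bKO given LPS and 68.9, 62.5 and 59.5 TPM with vehicle (log2 change -0.86, limma adjusted p = 1.32e-08). In control marrow cells Ndufs7 had 30.7, 27.3 and 34.1 TPM with LPS and 58.2, 63.3 and 63.6 TPM with vehicle (log2 change -0.99, SE 0.07, adjusted p = 2.21e-09). In wild-type RAW264.7 cells at 16 h it had 62.2, 61.0 and 68.7 TPM with LPS and 137, 120 and 122 TPM with vehicle (log2 change -0.97, adjusted p = 2.71e-09). All Ndufs7 libraries given LPS lay below all those given vehicle in these 3 sets. Relative to the median of all genes its change had a median of -0.49 over the 6 comparisons, from -0.60 to -0.45, the lowest of the members measured in all 6; Cox4i2, not listed in the marrow table, had a median of -0.77 over the 4 RAW264.7 comparisons. Ndufv3 (-0.47), a regulatory subunit of the NADH-oxidising module, Ndufb10 (-0.43), of the distal membrane arm, and the supercomplex factor Cox7a2l (-0.42) came next, followed by Sdha and Sdhd (-0.41 each).

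Across the 6 comparisons 60 of the 76 members listed in all of them were called lower in every one. In single comparisons 49.2 to 66.4% of all genes were called lower. How many of all genes were lower in all 6, or stayed on 1 side of their median, was not counted. Relative to the median of all genes, 28 lay below it in all 6 and 5 lay above it in all 6: Ndufs4, Uqcrb, Atp5md, Cox7a2 and Atp5b. Ndufs4, an accessory subunit of the complex I matrix arm that is needed for its stability, had 59.4, 65.6 and 66.1 TPM in control marrow cells given LPS, against 58.6, 60.8 and 61.0 TPM with vehicle, and those libraries overlapped (log2 change 0.08, limma adjusted p = 0.185). In wild-type RAW264.7 cells at 6 h Ndufs4 had 112, 102 and 106 TPM with LPS and 104, 106 and 103 TPM with vehicle. It was called in 1 of the 6 comparisons, lower by 0.09 in Setd1aDel cells at 16 h (adjusted p = 0.0361), and was higher there by 0.35 after median-of-ratios scaling. Atp5b, the catalytic beta subunit of ATP synthase, rose by 0.11 and 0.06 in Setd1bKO and control marrow cells (limma adjusted p = 0.000984 and 0.0335). In RAW264.7 cells Atp5b fell by 0.33 and 0.27 at 16 h and by 0.08 and 0.13 at 6 h in Setd1aDel and wild-type cells, and each of these 4 was positive after scaling.

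Cox5a, a nuclear subunit of complex IV, was called higher with LPS in 1 marrow set and lower in the 4 RAW264.7 sets on the TPM scale. It had 306, 295 and 285 TPM in marrow cells labelled Setd1bKO given LPS, against 257 to 274 TPM with vehicle (log2 change 0.15, limma adjusted p = 0.00515). In controls it had 290, 282 and 280 TPM with LPS and 268, 270 and 276 TPM with vehicle (0.06, adjusted p = 0.194). In RAW264.7 cells at 16 h Cox5a had 420, 360 and 340 TPM with LPS and 628, 586 and 623 TPM with vehicle in Setd1aDel cells (-0.72, adjusted p = 3.27e-07). In wild type it had 487, 483 and 427 TPM with LPS and 572, 650 and 676 TPM with vehicle (-0.44, adjusted p = 7.52e-05). LPS libraries lay above vehicle libraries in marrow cells and below them in RAW264.7 cells at 16 h. Its change lay above the median of all genes in the 2 marrow sets and below it in the 4 RAW264.7 sets. In wild type at 16 h it was close to that median (-0.38). The tables were normalised separately and the difference between cell types was not tested. Over members, the log2 changes of Setd1bKO and control marrow cells correlated at r = 0.948 (n = 76 genes), those of the RAW264.7 sets with each other at 0.659 to 0.823 (n = 78), and those of marrow with RAW264.7 cells at 0.428 to 0.594 (n = 76). These correlations run across genes, which are not independent replicates.

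Cox7a2l encodes a factor related to the complex IV subunit Cox7a2 that joins complexes III and IV in supercomplexes (chr17:83501918-83517330). It had 214, 214 and 215 TPM in cells labelled Setd1bKO given LPS and 429, 414 and 420 TPM with vehicle (log2 change -0.97, limma adjusted p = 7.74e-14). In controls Cox7a2l had 185, 193 and 192 TPM with LPS and 410, 445 and 417 TPM with vehicle (-1.15, SE 0.03, adjusted p = 8.29e-15). It was the member with the largest fall in control marrow cells, and it stayed lower there by 0.62 after scaling. Its paralog Cox7a2 was above the median of all genes in all 6 comparisons, so the 2 moved apart relative to that median. In RAW264.7 cells Cox7a2l fell by 0.53 and 0.61 at 16 h and by 0.68 and 0.60 at 6 h in Setd1aDel and wild-type cells.

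A paralog of the complex IV subunit Ndufa4 that the naming rule does not reach, AA467197, moved the other way. It is listed only in the marrow table, which does not list Ndufa4 itself. AA467197 had 556, 497 and 495 TPM in cells labelled Setd1bKO given LPS, against 24.2, 28.6 and 27.3 TPM with vehicle (log2 change 4.22, limma adjusted p = 2.86e-16). Controls had 1414.7, 1464.9 and 1357.3 TPM with LPS, against 31.2, 37.0 and 36.7 TPM with vehicle (5.30, adjusted p = 1.54e-17). The LPS change of AA467197 was smaller in cells labelled Setd1bKO by 1.08 on the log2 scale (SE 0.12, adjusted p = 1.6e-05). With LPS the Setd1bKO libraries lay below all control libraries (log2 difference -1.45, adjusted p = 2.71e-09).

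Of 13 mitochondrially encoded subunits, 5 were lower in cells labelled Setd1bKO given LPS and 3 in control marrow cells, 12 and 3 at 16 h and 4 and 1 at 6 h in Setd1aDel and wild-type RAW264.7 cells, with none higher. In the same order, 58.2% and 64.7%, 66.4% and 66.1%, and 49.2% and 52.3% of all genes were lower. The share of all genes higher was 17.4 to 24.9%. After scaling, 4 of the 13 were higher in cells labelled Setd1bKO and 10 in control marrow cells, with none lower, where 39.2% and 38.9% of all genes were higher. The other lists are set against 58.2% of all genes lower in cells labelled Setd1bKO and 64.7% in controls. Of 43 assembly factors, which put the complexes together, 28 were lower and 4 higher in cells labelled Setd1bKO and 30 lower and 5 higher in controls, shares near those of all genes. Of 75 mitochondrial ribosomal proteins, which translate the mitochondrial subunits, 56 were lower in both, with 7 higher in cells labelled Setd1bKO and 3 in controls. Of 19 genes of the tricarboxylic acid cycle, 12 were lower and 3 higher in cells labelled Setd1bKO, and 15 lower and 2 higher in control marrow cells. Of 77 cytosolic ribosomal proteins, 73 were lower and 2 higher in cells labelled Setd1bKO, and 74 lower and 2 higher in controls. Macrophage markers moved too: their summed level was 17382.0 to 17618.2 TPM in cells labelled Setd1bKO given LPS and 25029.4 to 25811.7 TPM with vehicle. In control marrow cells it was 25124.0 to 26937.0 TPM with LPS and 38268.8 to 39250.5 TPM with vehicle. In Setd1aDel RAW264.7 cells the sum was likewise lower with LPS, at 11306.2 to 13076.1 TPM against 23052.1 to 24158.0 TPM with vehicle at 16 h, and 6855.3 to 7351.8 TPM against 11755.3 to 12582.9 TPM at 6 h. In wild-type cells it was lower at 6 h, at 7758.7 to 7899.7 TPM with LPS against 9371.7 to 9680.9 TPM with vehicle, and higher at 16 h, at 4437.4 to 4790.2 TPM with LPS against 2633.5 to 3057.1 TPM with vehicle. Their part in the subunit changes was not tested.

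The promoters of a few members are shown because these genes mark the ends of the LPS response or, for Cox7a2l, also differ with Setd1aDel. RefSeq promoter sequences (GRCm38.p6, 250 bases before to 50 after the start site) were matched for 67 of the 85 members. Motifs often named for respiratory genes were searched on both strands: GCGC, any base and TGCGC for NRF1, CCGGAAG for ETS factors such as GABPA, and AAGATGGC for YY1. The NRF1 letters stood in 16 of the 67 promoters (23.9%) and in 4.78% of all 27025 mouse promoters, the ETS letters in 16 (23.9%) and 9.12%, and the YY1 letters in 9 (13.4%) and 2.88%. In the sequences, written 5′ to 3′ on the gene's strand, capitals mark these motifs or their reverse complement: the YY1 letters in Ndufs7 (chr10:80249199-80249498, plus strand) and in Ndufs4 (chr13:114388045-114388344, minus strand), and the NRF1 letters and then the ETS letters in Sdhd (chr9:50603800-50604099, minus strand). Cox7a2l (chr17:83514284-83514583, minus strand) holds none of them in this window, which lies within its GENCODE span (chr17:83501918-83517330). Further motifs were searched in the same windows and were not more frequent in members to a like degree. The CCAAT box stood in 29 of the 67 promoters (43.3%) and in 37.92% of all mouse promoters. The NF-kappaB motif stood in 1 (1.5%) and 1.62%, and the glucocorticoid response element in 0 (0.0%) and 0.04%. Only the first listed start site of each gene was used, so other start sites were not searched.
Ndufs7: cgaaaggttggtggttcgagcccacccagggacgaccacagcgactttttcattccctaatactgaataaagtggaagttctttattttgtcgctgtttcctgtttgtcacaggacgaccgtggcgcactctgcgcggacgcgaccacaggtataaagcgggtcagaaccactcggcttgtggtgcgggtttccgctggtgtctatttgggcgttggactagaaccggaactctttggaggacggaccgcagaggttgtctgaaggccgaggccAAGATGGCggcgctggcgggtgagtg
Sdhd: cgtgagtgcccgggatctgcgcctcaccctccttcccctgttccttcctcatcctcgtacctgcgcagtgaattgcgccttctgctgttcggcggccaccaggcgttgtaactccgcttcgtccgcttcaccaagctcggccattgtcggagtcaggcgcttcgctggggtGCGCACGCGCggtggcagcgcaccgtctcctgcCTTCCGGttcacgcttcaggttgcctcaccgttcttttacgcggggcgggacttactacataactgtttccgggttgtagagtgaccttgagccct
Ndufs4: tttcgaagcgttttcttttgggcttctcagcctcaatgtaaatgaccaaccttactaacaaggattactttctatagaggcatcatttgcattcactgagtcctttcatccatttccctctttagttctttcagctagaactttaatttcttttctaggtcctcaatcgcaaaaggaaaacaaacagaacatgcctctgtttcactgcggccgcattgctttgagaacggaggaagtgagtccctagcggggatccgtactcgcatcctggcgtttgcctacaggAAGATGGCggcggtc
Cox7a2l: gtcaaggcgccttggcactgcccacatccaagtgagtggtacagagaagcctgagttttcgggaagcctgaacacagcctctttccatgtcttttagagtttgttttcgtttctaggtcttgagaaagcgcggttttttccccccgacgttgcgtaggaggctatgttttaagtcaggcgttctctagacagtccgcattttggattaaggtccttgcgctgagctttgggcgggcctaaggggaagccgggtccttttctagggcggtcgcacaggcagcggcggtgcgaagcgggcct
The YY1 letters thus stand near the start of a gene with one of the largest falls under LPS, Ndufs7, and of one with none called in 5 of 6 comparisons, Ndufs4. In control marrow cells the median log2 LPS change was -0.57 for the 16 measured members with the NRF1 letters and -0.55 for the 47 without. In wild-type RAW264.7 cells that median was -0.52 with and -0.37 without the NRF1 letters at 16 h, and -0.46 with and -0.40 without at 6 h. For the ETS letters it was -0.49 with and -0.57 without in control marrow cells, -0.37 and -0.44 at 16 h, and -0.41 and -0.42 at 6 h. For the YY1 letters it was -0.63 in the 8 members with them and -0.55 in the 55 without in control marrow cells, -0.34 and -0.42 at 16 h, and -0.40 and -0.43 at 6 h. The median was thus lower with the NRF1 letters and higher with the ETS letters in all 3 sets. It was nearly level for NRF1 in control marrow cells and for ETS at 6 h, and went both ways for the YY1 letters. The 3 sets hold the same members, so they are not independent repeats, and these differences were not tested. A match is a description of letters, not of binding.

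Dexamethasone given with LPS gave mostly higher calls in marrow cells on the TPM scale and mostly lower calls there after scaling. In RAW264.7 cells lower calls outnumbered higher ones on both scales in Setd1aDel cells at 16 h. At 6 h higher calls outnumbered lower ones on the TPM scale, and after scaling the 2 directions were nearly level. In marrow cells on the TPM scale limma called 43 of 76 members higher and none lower in cells labelled Setd1bKO (39.2% of all genes were higher and 13.5% lower), and 29 higher and 2 lower in controls (44.8% and 15.2%). After scaling these became 4 higher and 11 lower in cells labelled Setd1bKO (15.3% and 23.8% of all genes) and 1 higher and 27 lower in controls (20.6% and 26.8%), so that the share of members lower was below that of all genes in cells labelled Setd1bKO. The authors' deposited table, which rests on DESeq2 fold changes, holds 2 higher and 9 lower at an adjusted p of 0.05 for the cells labelled Setd1bKO and none higher and 24 lower for the controls. In RAW264.7 cells at 16 h, 3 of 78 were higher and 23 lower in Setd1aDel cells (29.8% and 14.9% of all genes; after scaling 2 and 36, with 22.6% and 21.6% of all genes), and 4 higher and 4 lower in wild type (35.2% and 12.3%; after scaling 1 and 31, with 19.8% and 23.3%). In the authors' deposited table those sets hold none higher and 37 lower in Setd1aDel cells and none higher and 32 lower in wild type. At 6 h, 13 were higher and 3 lower in Setd1aDel cells (22.1% and 10.7% of all genes; after scaling 6 and 5, with 16.1% and 15.8%), and 8 higher and none lower in wild type (14.7% and 10.6%; after scaling 2 and 1, with 11.1% and 13.9%). In the authors' deposited table the 6 h sets hold 4 higher and 5 lower in Setd1aDel cells and 3 higher and 1 lower in wild type. The median log2 change of all genes with Dex lay between 0.04 and 0.18, so small rises on the TPM scale were shared with other genes. After scaling members were lower more often than higher except at 6 h, where few were called in either direction.

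Ndufa8, an accessory subunit of complex I in the intermembrane space, was called higher with Dex in 6 of 6 sets on the TPM scale, though it stood at -0.04 in control marrow cells after scaling. It had 119, 120 and 133 TPM with Dex and LPS and 98.0, 94.5 and 97.2 TPM with LPS in Setd1aDel cells at 6 h (log2 change 0.36, limma adjusted p = 1.03e-05). In marrow cells labelled Setd1bKO Ndufa8 had 73.7, 79.1 and 68.4 TPM with Dex and LPS and 60.6, 59.3 and 57.3 TPM with LPS (0.31, adjusted p = 0.000285). The libraries with Dex lay above those without in both sets. Within each set, the called changes furthest from 0 were those of Ndufa6 (0.41), Ndufb3 (0.40) and Ndufb10 (0.35) in cells labelled Setd1bKO, and Ndufa6 (0.38), Ndufs7 (0.33) and Ndufb3 (0.32) in control marrow cells. They were Cox4i2 (-0.73), Cox6a2 (0.50) and Ndufa1 (-0.34) in Setd1aDel cells at 16 h.

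Dex without LPS was given at 6 h in RAW264.7 cells. There 1 of 78 members rose and 6 fell in Setd1aDel cells (12.0% of all genes rose and 18.3% fell), and 6 rose and 17 fell in wild type (12.0% and 24.8%; after scaling 9 and 6, with 15.8% and 19.6%). Cox7a2l had 517, 511 and 508 TPM with Dex in Setd1aDel cells, against 372, 390 and 355 TPM with vehicle (log2 change 0.46, limma adjusted p = 1.78e-07). In wild type it had 422, 437 and 425 TPM with Dex, against 307, 292 and 323 TPM with vehicle (0.48, adjusted p = 8.52e-08). Every Dex library lay above every vehicle library, and after scaling the changes were 0.47 and 0.52. Cox8a, a small subunit of complex IV, had 932, 845 and 713 TPM with Dex in wild type, against 1253.4, 1098.3 and 1140.5 TPM with vehicle (-0.49, adjusted p = 0.00202). Sdhb fell by 0.21 in Setd1aDel cells and by 0.31 in wild type.

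Between marrow cells labelled Setd1bKO and controls at most 22 of 76 members were called in any condition on the TPM scale. Under vehicle 4 of 76 were higher and 6 lower (9.89% and 15.4% of all genes), under LPS 13 higher and 6 lower (29.0% and 12.4%), and under Dex with LPS 21 higher and 1 lower (23.5% and 11.5%). After scaling the split was 4 and 2 under vehicle (11.1% and 14.4% of all genes), 0 and 14 under LPS (15.9% and 19.9%), and 4 and 3 under Dex with LPS (12.9% and 16.5%). Under LPS the calls thus went from mostly higher to all lower. Of the 19 members called there on the TPM scale, 2 changed sign. The median log2 difference of members was 0.03 under LPS, against 0.10 for all genes, and 0.09 under Dex with LPS, against 0.07. Macrophage markers moved with the same contrast: they summed to 25029.4 to 25811.7 TPM in cells labelled Setd1bKO under vehicle and 38268.8 to 39250.5 TPM in controls, to 17382.0 to 17618.2 and 25124.0 to 26937.0 TPM with LPS, and to 19048.9 to 19933.9 and 28794.7 to 30392.4 TPM with Dex and LPS. S100a8 had 449 to 521 TPM with Dex and LPS in cells labelled Setd1bKO and 273 to 303 TPM in controls. Their part in the subunit differences was not tested.

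Ndufa1, a small membrane subunit of complex I encoded on the X chromosome (chrX:37187588-37191163), was higher in all 3 conditions. It had 528, 496 and 515 TPM in cells labelled Setd1bKO under vehicle, against 440, 458 and 418 TPM in controls (log2 difference 0.23, limma adjusted p = 0.00165). With LPS Ndufa1 had 370, 386 and 365 TPM in cells labelled Setd1bKO and 321, 307 and 323 TPM in controls (0.24, limma adjusted p = 0.000657; after scaling 0.12, limma adjusted p = 0.152). With Dex and LPS it had 425, 375 and 381 TPM in cells labelled Setd1bKO and 317, 316 and 315 TPM in controls (0.31, adjusted p = 6.43e-05). The 2 sets of libraries did not overlap in any condition. Ndufb3, of the distal membrane arm, had 117, 103 and 105 TPM in cells labelled Setd1bKO with Dex and LPS, against 79.9, 91.3 and 83.1 TPM in controls (0.35, adjusted p = 0.000303). Complex II was split under vehicle: Sdhb (-0.17), Sdhc (-0.15) and Sdha (-0.14) were lower and Sdhd (0.12) was higher. Sdhb had 119, 116 and 123 TPM in cells labelled Setd1bKO and 135, 135 and 133 TPM in controls, and Sdhd had 140, 133 and 144 TPM in cells labelled Setd1bKO and 128, 124 and 132 TPM in controls.

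The response to LPS differed between cells labelled Setd1bKO and controls for 3 of 76 members (16.4% of all genes differed upward and 5.43% downward), and the response to Dex for 1 (2.69% and 3.53%). The LPS change was higher by 0.18 for Cox7a2l (limma adjusted p = 0.00808), by 0.36 for Ndufb3 (adjusted p = 0.00639) and by 0.19 for Uqcrb, the ubiquinone-binding accessory subunit of complex III. After scaling the difference was 0.04 for Cox7a2l and 0.22 for Ndufb3 (adjusted p = 0.185), and 3 members were called downward (8.56% of all genes were called upward and 10.3% downward).

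On the TPM scale Setd1aDel RAW264.7 cells had most nuclear subunits called lower in the 16 h and IFNB1 experiments. In the 6 h experiment 10 to 24 of 78 members were called in either direction. At 16 h 42 of 78 members were lower and 3 higher under vehicle (32.9% of all genes lower, 15.3% higher), 63 lower and 3 higher under LPS (42.4% and 17.5%), and 67 lower and 3 higher under Dex with LPS (47.6% and 17.0%). After scaling these were 24 and 8 (21.0% and 22.0% of all genes), 41 and 5 (29.9% and 26.7%), and 44 and 4 (30.1% and 30.4%). In the IFNB1 experiment 59 of 83 members were lower and 3 higher under LPS (24.9% and 17.7% of all genes; after scaling 44 and 3, with 20.7% and 21.1%), and 51 lower and 4 higher under IFNB1 with LPS (38.4% and 15.8%; after scaling 11 and 6, with 21.8% and 24.0%). The 6 h experiment had 18 lower and 4 higher under vehicle (15.6% and 6.58% of all genes; after scaling 6 and 11, with 7.97% and 10.8%), 9 and 4 under LPS (12.3% and 9.19%), 13 and 11 under Dex with LPS (13.1% each), and 8 and 2 under Dex (7.37% and 6.20%). The median log2 difference under LPS was -0.26 at 16 h, against -0.11 for all genes, -0.02 at 6 h, against -0.02, and -0.17 in the IFNB1 experiment, against -0.05.

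**Figure D3:**
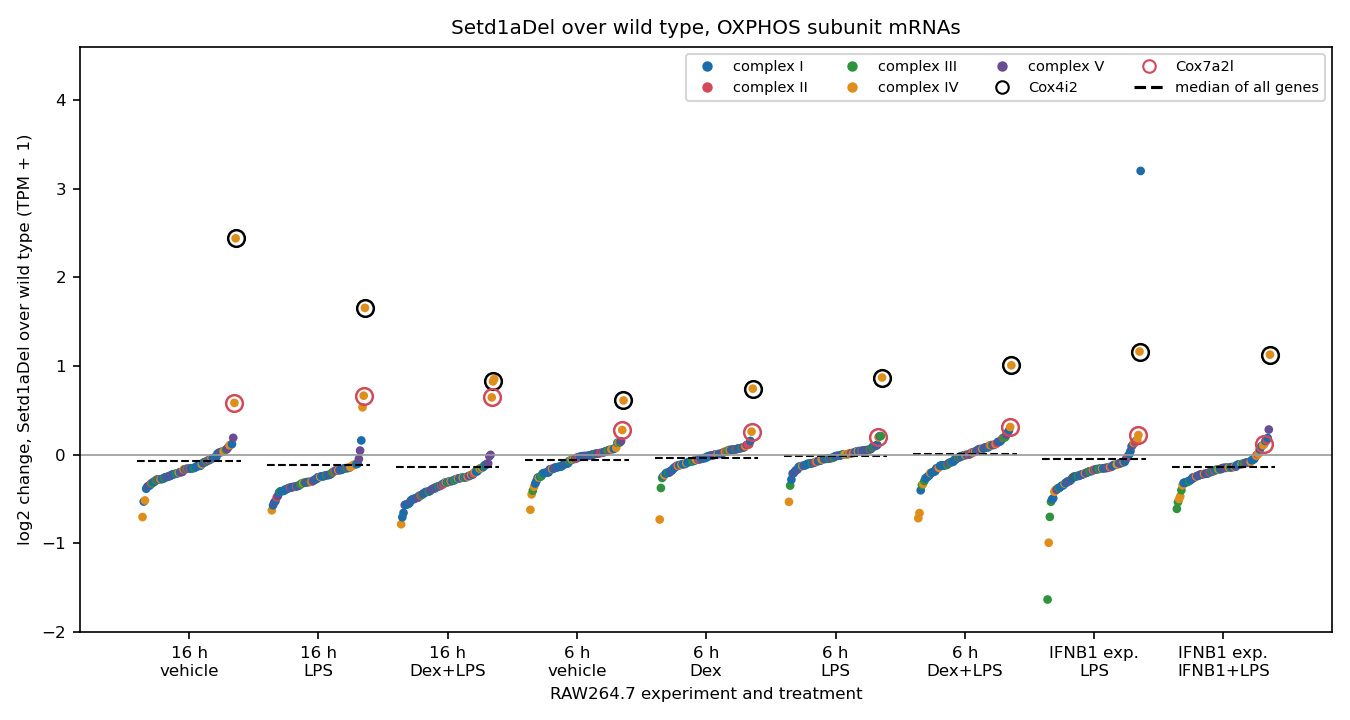
log2 difference in TPM, Setd1aDel over wild type, for every measured subunit sorted by size in 9 comparisons of RAW264.7 cells; circles mark Cox4i2 and Cox7a2l and the dashed line is the median of all tested genes. Most points lie below 0 in the 16 h panels (member medians -0.16, -0.26 and -0.31), while those of the 6 h panels lie near 0; Cox4i2 and Cox7a2l lie above 0 in all 9.

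The size of the difference was tested in 1 joint fit of both dexamethasone experiments, a fit chosen after the data were seen. The Setd1aDel difference at 16 h minus that at 6 h was below 0 for 15 of 78 members and above for 3 under vehicle (11.7% and 11.6% of all genes), below for 40 and above for 3 under LPS (27.8% and 13.6%), and below for 51 and above for 3 under Dex with LPS (34.6% and 11.9%; after scaling 28 and 6, with 21.2% and 22.0%). The duration of vehicle or Dex and the experiment cannot be told apart. Macrophage markers moved with the same contrast: their 7 listed members summed to 23052.1 to 24158.0 TPM in Setd1aDel cells under vehicle at 16 h and 2633.5 to 3057.1 TPM in wild type, and to 11755.3 to 12582.9 TPM in Setd1aDel cells and 9371.7 to 9680.9 TPM in wild type at 6 h. With LPS the sums were 11306.2 to 13076.1 TPM in Setd1aDel cells and 4437.4 to 4790.2 TPM in wild type at 16 h. At 6 h with LPS the order was reversed, with 6855.3 to 7351.8 TPM in Setd1aDel cells and 7758.7 to 7899.7 TPM in wild type. In the IFNB1 experiment all 8 markers summed to 10768.7 to 10965.6 TPM in Setd1aDel cells given LPS and 6659.6 to 6755.1 TPM in wild type. S100a8, the 1 neutrophil marker listed, had 98.5 to 106 TPM in Setd1aDel cells given LPS at 16 h and 4.91 to 5.45 TPM in wild type. Of the RAW264.7 sets, wild-type cells of the 16 h experiment had the lowest macrophage marker sums, and Setd1aDel cells under vehicle at 16 h the highest. The part of these markers in the subunit differences was not tested.

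On the TPM scale the lower calls ran through complexes I, II, III and V at 16 h. Under vehicle, LPS and Dex with LPS, 32.9%, 42.4% and 47.6% of all genes were lower there, and 15.3%, 17.5% and 17.0% higher. Of 35 complex I genes, 20 were lower under vehicle, 31 under LPS and 32 under Dex with LPS, with none higher. Of the 4 complex II genes, 3, 4 and 4 were lower, and of the 9 of complex III, 6, 8 and 8. Of the 17 of complex V, 10, 13 and 14 were lower, with 1 higher under vehicle. Complex IV was mixed: of 13, 3 were lower and 2 higher under vehicle, 7 and 3 under LPS, and 9 and 3 under Dex with LPS. In the IFNB1 experiment under LPS all 9 complex III genes were lower, as were 23 of 36 of complex I and 14 of 17 of complex V. There 24.9% of all genes were lower. Ndufs8, an iron-sulfur subunit of complex I, had 125, 133 and 125 TPM in Setd1aDel cells under vehicle at 16 h, against 179, 187 and 188 TPM in wild type (log2 difference -0.53, limma adjusted p = 1.48e-08). With LPS it had 74.9, 76.8 and 79.0 TPM in Setd1aDel cells, against 111, 117 and 116 TPM. All Setd1aDel libraries lay below all wild-type ones for Ndufs8 in both. Uqcr10, a small subunit of complex III, had 197, 198 and 211 TPM in Setd1aDel cells given LPS in the IFNB1 experiment, against 334, 353 and 304 TPM in wild type (-0.70, adjusted p = 0.000111), and was called lower in 7 of the 9 comparisons.

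Cox4i2 and Cox7a2l stood higher in Setd1aDel cells in all 9 comparisons, also after scaling. Cox4i2, the lung-type and hypoxia-responsive isoform of complex IV subunit 4 (chr2:152754173-152765037), had 22.8, 24.6 and 22.5 TPM in Setd1aDel cells under vehicle at 16 h, against 2.87, 3.23 and 4.47 TPM in wild type (log2 difference 2.44, SE 0.11, limma adjusted p = 5.35e-11). With LPS Cox4i2 had 7.67, 8.25 and 7.85 TPM in Setd1aDel cells and 2.01, 1.52 and 1.99 TPM in wild type (1.66, adjusted p = 2.4e-09). With Dex and LPS it had 4.47, 4.14 and 4.57 TPM in Setd1aDel cells and 2.11, 1.78 and 2.27 TPM in wild type (0.82, adjusted p = 5.53e-06). No Setd1aDel library overlapped a wild-type one. At 6 h Cox4i2 had 16.7, 20.5 and 13.4 TPM in Setd1aDel cells under vehicle, against 9.15, 13.3 and 9.55 TPM in wild type (0.61, adjusted p = 0.00541). With LPS it had 8.67, 7.40 and 10.2 TPM in Setd1aDel cells, against 4.72, 3.69 and 4.56 TPM (0.87, adjusted p = 0.000234). In the IFNB1 experiment it had 8.0, 6.7 and 7.3 TPM in Setd1aDel cells given LPS, against 3.2, 2.3 and 2.7 TPM (1.16, adjusted p = 1.88e-05). The difference was thus largest under vehicle at 16 h, where wild type was lower than at 6 h. Cox4i2 remained a minor isoform: it made up 0.23 to 3.15% of the summed TPM of Cox4i1 and Cox4i2 at 16 h, 0.53 to 2.73% at 6 h and 0.27 to 1.05% in the IFNB1 experiment. The log2 change of Cox4i2 with LPS was -1.44 in Setd1aDel and -0.66 in wild-type cells at 16 h, and -0.86 and -1.12 at 6 h.

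Cox7a2l had 439, 420 and 446 TPM in Setd1aDel cells under vehicle at 16 h, against 290 ± 22.7 TPM in wild type (SD, n = 3 libraries, the highest at 309 TPM; log2 difference 0.58, limma adjusted p = 3.96e-08). With LPS it had 302, 296 and 302 TPM in Setd1aDel cells, against 192, 190 and 185 TPM (0.66, adjusted p = 3.43e-09). At 6 h Cox7a2l had 372, 390 and 355 TPM in Setd1aDel cells under vehicle, against 307, 292 and 323 TPM (0.28, adjusted p = 0.000196). In the IFNB1 experiment it had 209, 207 and 200 TPM in Setd1aDel cells given LPS, against 174, 174 and 180 TPM (0.22). Setd1aDel libraries were above wild-type ones throughout, with the lowest difference, 0.12, under IFNB1 with LPS (adjusted p = 0.00888). Its paralog Cox7a2 (chr9:79755361-79759878), the ubiquitous subunit 7a of complex IV, moved the other way at 16 h, with 964, 947 and 982 TPM in Setd1aDel cells under vehicle and 1358.0, 1373.3 and 1415.0 TPM in wild type (-0.52, adjusted p = 6.32e-09). With LPS Cox7a2 had 788, 834 and 817 TPM in Setd1aDel cells and 1228.4, 1255.8 and 1290.6 TPM in wild type (-0.63, adjusted p = 2.27e-10), and with Dex and LPS 703, 676 and 685 TPM and 1215.8, 1207.7 and 1139.7 TPM (-0.79, adjusted p = 1.22e-11). These sets were far apart. At 6 h Cox7a2 had 782, 765 and 738 TPM in Setd1aDel cells under vehicle and 784, 812 and 781 TPM in wild type, which overlapped at the edge (-0.06, adjusted p = 0.287). Cox7a2l made up 12.53 to 31.28% of the summed TPM of both at 16 h and 21.14 to 42.68% at 6 h.

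**Figure D4:**
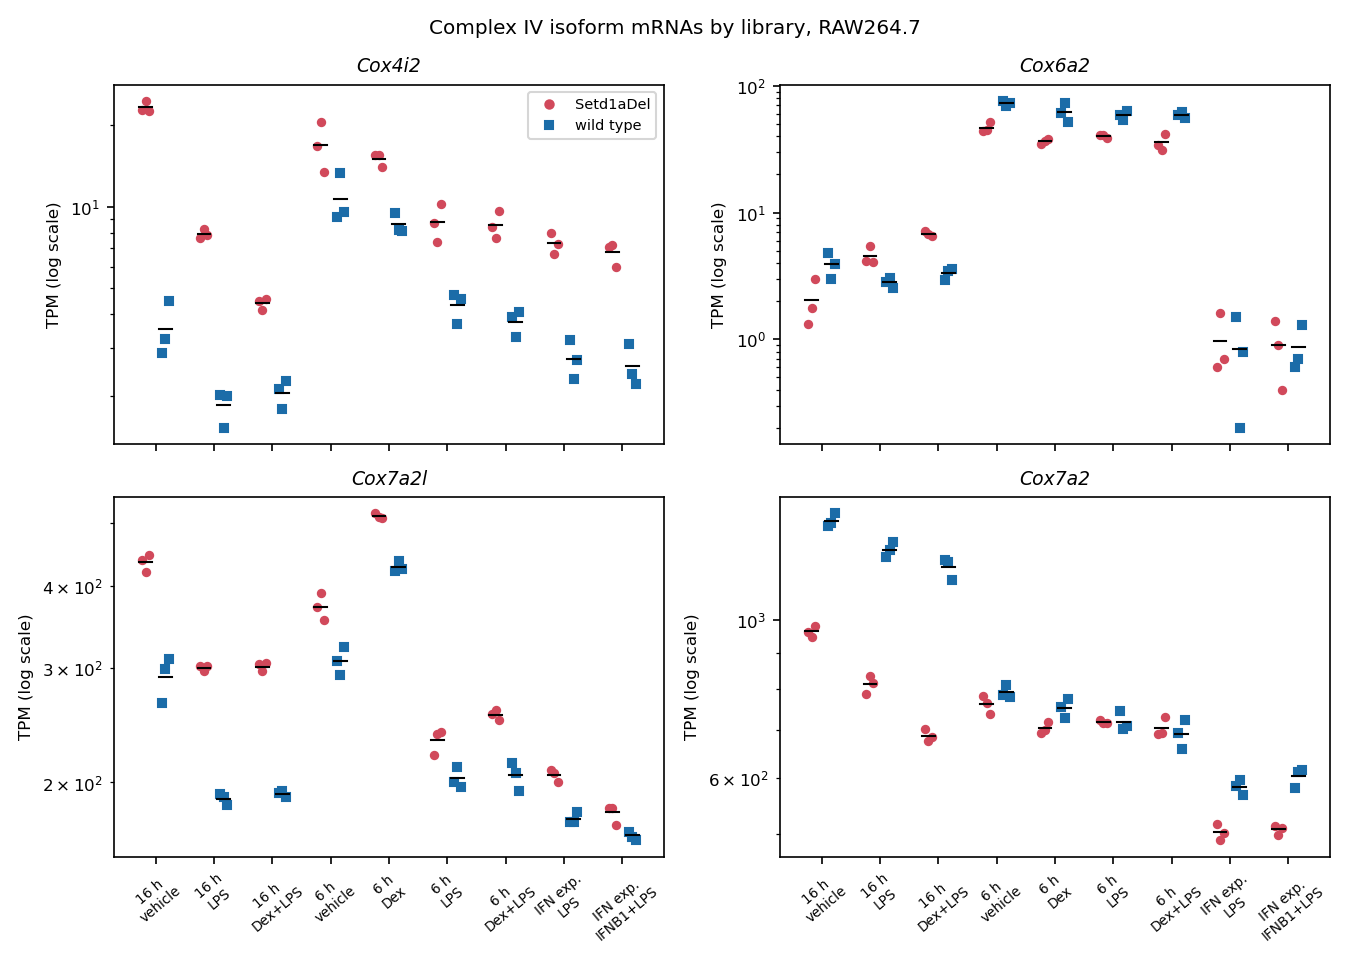
TPM (log axes) of Cox4i2, Cox6a2, Cox7a2l and Cox7a2 in each RAW264.7 library, Setd1aDel left of wild type within each condition of the 16 h, 6 h and IFNB1 experiments; lines are means of 3. Cox4i2 and Cox7a2l are higher in Setd1aDel cells in every condition, Cox7a2 is lower at 16 h, and Cox6a2 at 6 h lies between 38.6 and 76.0 TPM under vehicle and LPS but under 8 TPM at 16 h.

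Cox6a2, the heart and muscle isoform of subunit 6a, varied most between experiments. At 6 h it had 44.0, 44.6 and 51.8 TPM in Setd1aDel cells under vehicle, against 76.0, 68.9 and 72.8 TPM in wild type (log2 difference -0.62, limma adjusted p = 0.000308). With LPS it had 40.9, 41.0 and 38.6 TPM in Setd1aDel cells, against 58.9, 53.7 and 63.6 TPM (-0.53). At 16 h Cox6a2 had 1.33, 1.78 and 3.01 TPM in Setd1aDel cells under vehicle, against 4.81, 2.97 and 3.91 TPM (-0.71, adjusted p = 0.00259). With Dex and LPS it had 7.10, 6.74 and 6.53 TPM in Setd1aDel cells, against 2.94, 3.43 and 3.60 TPM (0.85, adjusted p = 0.000348). The direction at 16 h thus differed between vehicle and Dex with LPS, at levels of a few TPM, where the added pseudocount of 1 shrinks the change; under vehicle the sets overlapped. The 16 h and 6 h values come from 1 deposited table.

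The mitochondrially encoded subunits were counted beside the nuclear ones, with no test between them. In Setd1aDel cells 9 of 13 mitochondrially encoded subunits were higher and none lower under vehicle at 16 h (median log2 difference 0.45; 15.3% of all genes were higher), where 42 of 78 nuclear members were lower. Under LPS in the IFNB1 experiment 8 of 13 were higher and none lower (0.44; 17.7% of all genes were higher), where 59 of 83 nuclear members were lower. Under LPS and under Dex with LPS at 16 h, 3 were higher and 1 lower in each. Of all genes, 17.5% and 17.0% were higher there and 42.4% and 47.6% lower. At 6 h none were called under vehicle or LPS, where 15.6% and 12.3% of all genes were lower and 6.58% and 9.19% higher. Under Dex with LPS 3 were lower and under Dex 1, where 13.1% and 7.37% of all genes were lower. The libraries were selected for polyadenylated RNA. Of 75 mitochondrial ribosomal proteins 58, 59 and 68 were lower at 16 h under vehicle, LPS and Dex with LPS, and of 46 assembly factors 25, 31 and 34, where 32.9%, 42.4% and 47.6% of all genes were lower. In the IFNB1 experiment 53 and 51 of 77 mitochondrial ribosomal proteins were lower under LPS and IFNB1 with LPS, where 24.9% and 38.4% of all genes were.

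The LPS response differed between Setd1aDel and wild-type cells for 24 of 78 members at 16 h, with 23 more negative in Setd1aDel cells and 1 more positive (20.3% and 13.1% of all genes; after scaling 15 and 1, with 19.0% and 16.1%). The largest differences were those of Cox4i2 (-0.79), Ndufv2 (-0.40) and Uqcrh (-0.38), with Cox6a2 (1.24) on the other side; Sdhc (-0.21), Sdha (-0.20) and Sdhd (-0.16) were among the 23. At 6 h 1 differed, Ndufc2 (0.25), where 2.97% of all genes differed upward and 2.63% downward. The Dex response under LPS differed for 4 at 16 h, all more negative (7.68% of all genes, and 2.88% more positive), among them Cox4i2 (-0.83), and for 1 at 6 h, Ndufb5 (0.23; 3.25% and 2.04%).

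Adding IFNB1 to LPS lowered a minority of members. In Setd1aDel cells 28 of 83 fell and 1 rose (43.6% and 10.5% of all genes), and in wild type 32 fell and none rose (23.5% and 9.50%). The median log2 change was -0.07 over members and -0.18 over all genes in Setd1aDel cells, and -0.09 over both in wild type. Median-of-ratios scaling turned the split to 31 higher and 1 lower in Setd1aDel cells (22.1% and 19.9% of all genes) and 2 and 3 in wild type (14.7% and 12.5%), and the authors' deposited table holds 27 higher and none lower of 85 in Setd1aDel cells and 2 and 4 in wild type. The called changes furthest from 0 were those of Ndufb4 and Ndufb10 (-0.30 each) and Ndufc1 (0.19) in Setd1aDel cells, and of Atp5g1 (-0.31) and Ndufb10 (-0.29) in wild type. The response differed between Setd1aDel and wild-type cells for 1 member, Ndufb4 (-0.48; 8.01% of all genes differed downward and 3.31% upward). The level of Ndufb4 is uncertain in this table: 38.3% of its 31-base words also occur in the pseudogene Ndufb4c, listed at a mean of 197.9 TPM against 29.5 TPM for Ndufb4.

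The IFNB1 table lists some members at levels unlike the other tables. Ndufs4 lay between 8.5 and 16.1 TPM there, and Ndufs8 averaged 12.5 TPM. Cyc1, the haem-bearing cytochrome c1 of complex III, had 21.9, 19.0 and 25.7 TPM in Setd1aDel cells given LPS and 105, 58.4 and 57.2 TPM in wild type (log2 difference -1.64, SE 0.55, limma adjusted p = 0.0325). Ndufa9 was listed at 0 in 2 of 3 wild-type libraries given LPS, against 32.5, 19.1 and 19.9 TPM in Setd1aDel cells. In the GENCODE vM21 transcripts 100% of the 31-base words of Ndufb4c, 69.6% of those of Atp5l, 54.3% of those of Uqcrb and 40.2% of those of Atp5g2 also occurred in transcripts of other genes, so their levels are uncertain. The share was 0% for Cox4i2, Cox6a2 and Ndufa9, 0.6% for Cyc1, 4.1% for Cox7a2 and 21.4% for Cox7a2l. Ndufa11b and Ndufa4l2 were listed in the IFNB1 table but did not pass the filter of at least 1 TPM in at least 3 libraries; the other 83 passed, as did all 76 and 78 listed in the other tables.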

How the data were processed

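Polyadenylated RNA of 72 samples in 24 groups was sequenced. The deposited TPM values were made by the authors with Salmon 0.10.2, and DESeq2 and R 3.6.0 are also named, on GRCm38.p6 (mm10), per the submitters' processing notes; which annotation release was indexed is not given in the sources used. TPM keeps no depth, so the reads behind a value, and intervals that need them, are unknown. Log2 fold changes and adjusted p-values in the authors' deposited tables, per the file headers, were used only where named.

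From the TPM, log2(TPM + 1) was fitted with limma 3.58.1 in R 4.3.3 (with an intensity trend, all groups of an experiment in 1 fit) over the genes that reached 1 TPM in 3 or more libraries. A fold change on this scale understates the change of low genes. Benjamini-Hochberg adjustment ran over all tested genes, and calls used 0.05. Interactions tested differences of changes. A joint fit of the 16 h and 6 h experiments was added after the data were seen. The fits were repeated with no filter, with 0.1 as the pseudocount, after scaling by median of ratios, with each library left out and with a replicate block. The fits were tested on simulated data. The labels speak of biological replicates without naming animals or cultures, so p-values measure the spread between these samples, which may be technical.

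The members and gene lists were chosen with earlier results of these data known. Any member could be named. For each comparison the rule names the called members with the 3 highest and 3 lowest changes, the isoform sets, and counts and medians per complex. Summaries and figures used pandas 2.3.3, numpy 2.4.6 and matplotlib 3.10.9. Sequences are RefSeq's on GRCm38.p6, and gene positions and transcripts are GENCODE vM21's on the same assembly.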

Additional observations from a re-analysis of the deposited data

Results flagged for a closer look

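The values here are for members whose response to one factor differed between genotypes, or whose genotype difference differed between experiments, by limma's test of that difference with Benjamini-Hochberg adjustment over all genes; each is a difference of log2 changes on the TPM scale, and no cause was tested. In marrow-derived macrophages the LPS change in cells labelled Setd1bKO minus that in controls was 0.18 for Cox7a2l, 0.19 for Uqcrb and 0.36 for Ndufb3, and the Dex change under LPS differed by 0.22 for Ndufa3, an accessory subunit of complex I.

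In the 16 h RAW264.7 experiment the LPS change in Setd1aDel cells minus that in wild type was -0.79 for Cox4i2, -0.40 for Ndufv2, an iron-sulfur subunit of complex I, -0.38 for Uqcrh and 1.24 for Cox6a2. The Dex change under LPS differed there by -0.83 for Cox4i2 and by -0.20 each for Ndufab1, the mitochondrial acyl carrier protein, and Ndufb8. At 6 h the LPS change differed by 0.25 for Ndufc2 and the Dex change under LPS by 0.23 for Ndufb5. The IFNB1 change differed by -0.48 for Ndufb4, whose level is uncertain since it shares 38.3% of its 31-base words with the pseudogene Ndufb4c.

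The Setd1aDel difference at 16 h minus that at 6 h, tested in a fit chosen after the data were seen, was under vehicle -0.46 for Cox7a2, -0.35 each for Ndufv3 and Sdhd, 0.26 for Ndufa7, 0.31 for Cox7a2l and 1.83 for Cox4i2. Under LPS it was -0.63 for Cox7a2, -0.53 for Uqcrh, -0.51 for Sdhd, 0.47 for Cox7a2l, 0.79 for Cox4i2 and 1.07 for Cox6a2. Under Dex with LPS it was -0.82 for Cox7a2, -0.70 for Ndufa5, -0.68 for Ndufb5, 0.33 for Cox7a2l, 0.41 for Cox8a and 1.57 for Cox6a2. Duration and experiment cannot be told apart in these values.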

How the results depend on the processing

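Median-of-ratios scaling changed the most. The members called under it numbered 43 in control marrow cells and 46, 39, 39 and 41 in Setd1aDel and wild-type RAW264.7 cells at 16 h and at 6 h for LPS against vehicle. They numbered 15 in Setd1bKO marrow cells, 32 in wild type at 16 h and 3 in wild type at 6 h for Dex with LPS, 15 in wild type and 4 in Setd1aDel cells for Dex alone. There were 6 and 7 for Setd1bKO against control under vehicle and under Dex with LPS, 17 for Setd1aDel against wild type under IFNB1 with LPS and 5 for the IFNB1 change in wild type. There were 34 for the 16 h minus 6 h difference under Dex with LPS, 1 and 0 for the difference of the Dex change at 16 h and 6 h, 0 for that of the LPS change at 6 h and 4 for that of the IFNB1 change.

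Of the members called on the TPM scale, scaling turned the direction for LPS of 16 of 72 in Setd1bKO marrow cells and 29 of 73 in controls, of 21 of 72 and 32 of 69 at 16 h and 8 of 69 and 8 of 72 at 6 h in Setd1aDel and wild-type cells. It turned that for Dex with LPS of 14 of 43 in Setd1bKO marrow cells and 20 of 31 in controls, and that for IFNB1 of 21 of 29 in Setd1aDel cells. The scaled log2 values follow only for genes followed one by one, namely each comparison's 3 highest and 3 lowest called members, the isoform sets and a few check genes. They were, for LPS in control marrow cells, Cox7a2 0.36, Uqcrfs1 0.41, Atp5g3 0.31, Cox7b 0.0493, Cox4i1 0.14, Cox8a 0.10, Cox6b1 0.27 and Cox6a1 0.28, and in Setd1bKO cells Uqcrfs1 0.23, Atp5g3 0.19, Cox7a2 0.32, Cox6b1 0.10 and Cox6a1 0.14. For LPS in Setd1aDel cells at 16 h they were Atp5md 0.26, Ndufs4 0.35, Cox7b 0.11, Cox4i1 0.17, Cox7a2 0.20, Cox8a 0.02, Cox6b1 0.10 and Atp5g2 0.0082, and in wild type Cox7b 0.23, Cox7a2 0.28, Cox4i1 0.29, Atp5g1 0.0093, Cox8a 0.0355, Cox6b1 0.32 and Cox6a1 0.0329. At 6 h they were Cox7b 0.0416, Atp5f1 0.12, Atp5b 0.14 and Cox7a2 0.14 in Setd1aDel cells, and Cox7b 0.11, Cox7a2 0.12, Atp5b 0.13, Cox4i1 0.0362 and Cox6b1 0.0766 in wild type. For Dex with LPS they were Cox6b1 -0.0750, Atp5a1 -0.0639, Atp5c1 -0.0480, Atp5g3 -0.0340, Cox7b -0.17, Cox7a2 -0.0355 and Cox8a -0.0292 in Setd1bKO marrow cells, and Atp5c1 -0.13, Cox4i1 -0.16, Cox8a -0.15 and Cox6b1 -0.21 in controls. For Setd1aDel against wild type they were Cox7b 0.0074 under Dex with LPS and Cox4i1 0.0599 under IFNB1 with LPS, and for IFNB1 Uqcrh 0.11, Atp5b 0.12, Atp5g1 0.0078, Atp5g3 0.0796 and Cox6a1 0.12 in Setd1aDel cells and Atp5a1 0.0203 in wild type; Il1b, a check of the LPS response and no member, turned to 0.18 for IFNB1 in Setd1aDel cells.

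Without the filter, 20 members were called for IFNB1 in wild type and 0 for the difference of the IFNB1 change. The pseudocount of 0.1 kept all 38 counts of calls within 1.5 times. Leaving out 1 library moved the count of calls by over 1.5 times from the count with all libraries for Setd1bKO against control under vehicle (6 to 9, against 10 with all, lowest without control vehicle replicate 2) and LPS (12 to 18, against 19, lowest without Setd1bKO LPS replicate 3), Dex with LPS at 16 h in wild type (5 to 9, against 8, lowest without replicate 2 of either condition) and Setd1aDel cells (14 to 29, against 26, lowest without LPS replicate 2 or Dex with LPS replicate 3), Dex with LPS in wild type at 6 h (2 to 5, against 8, lowest without LPS replicate 2 or 3), Dex alone in wild type (14 to 21, against 23, lowest without Dex replicate 3) and Setd1aDel cells (3 to 7, against 7, lowest without vehicle replicate 1 or Dex replicate 2), Setd1aDel against wild type under vehicle at 6 h (13 to 19, against 22, lowest without wild-type replicate 3 or Setd1aDel replicate 2) and IFNB1 in wild type (17 to 24, against 32, lowest without LPS replicate 2). The differences of changes ranged over 1 to 2 (Dex, marrow), 1 to 7 (Dex, 16 h), 0 to 1 (LPS, 6 h), 0 to 4 (Dex, 6 h) and 0 to 5 (IFNB1). The cause of these shifts was not tested. Same-numbered libraries did not deviate together (median correlations from -0.053 to 0.021), so the numbers do not pair samples; with a replicate block 2, 0 and 2 members were called for the difference of the Dex change at 16 h, of the LPS change at 6 h and of the Dex change at 6 h, and no other count moved by over 1.5 times.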
